A study of Coelastrella tenuitheca with 9 samples.

Results

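The genes followed here were picked by identifier, with earlier results of these data known. Their product names mark carriers, pumps and stores of ions, and those of both ATPases do not name a metal. The genes are the zinc/iron permease A07895, the E1-E2 ATPase A10982, the cation-transporting ATPase A00017 and the ferritin-like genes A04541 and A01264. They are 5 of 12605 genes in the deposited tables, and all 5 passed the filter on low counts that left 11140 genes for testing. The cells were Coelastrella tenuitheca S93-3, a wild-type green microalga, so every value comes from 1 strain. Cultures pre-grown for 5 days in modified BG-11 medium with 20 g/L glucose, at 28 °C under continuous light, were moved to fresh medium and kept for 7 days with 0 mg/L (Control), 20 mg/L (Cd20) or 50 mg/L (Cd50) cadmium chloride. Poly(A) RNA was sequenced in 3 libraries per group, all labelled batch 1, and libraries are named by group and number (Control 1, Cd20 1, Cd50 1). Values of a group's libraries are given in the order 1, 2, 3.

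Carriers of the zinc/iron permease (ZIP) family bring zinc, iron and related divalent metals into the cytosol, and in Arabidopsis the iron carrier of this family also admits cadmium. E1-E2 or P-type ATPases are pumps that take a phosphate from ATP onto their own chain while they alternate between the E1 and E2 shapes. The class holds calcium, proton, copper and heavy-metal pumps as well as lipid flippases, so the product name alone does not give the ion. Ferritins are protein cages that store iron in an oxidised, non-reactive form, and in the green alga Chlamydomonas they lie in the chloroplast.

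A07895 matched a permease of Endogone, A10982 an ATPase of Hyaloraphidium curvatum, A00017 an ATPase of Dimargaris xerosporica, and both ferritin-like genes 1 protein of Basidiobolus meristosporus, all of them fungi. None of the names comes from work on the algal protein itself. The genes lie on 5 different chromosomes of an assembly that the sources used here do not name. A07895 spans chromosome 5 from 1198916 to 1201142, A10982 chromosome 9 from 2950542 to 2959403, and A00017 chromosome 10 from 905037 to 918685. A04541 spans chromosome 1 from 3751740 to 3753621 and A01264 chromosome 12 from 186883 to 192643. The deposited gene lengths come without a statement of what they cover. They are read here as coding lengths, as 91.9% of them are multiples of 3. Both ATPases are long genes, with coding lengths of 3291 bases for A10982 and 3792 bases for A00017. The median over all genes is 1269 bases. The permease has a coding length of 1110 bases. The ferritin-like genes are close in coding length, 750 bases in A04541 and 795 bases in A01264, but differ in layout, since the coding part fills 39.9% of the span of A04541 and 13.8% of that of A01264. No other annotated gene overlaps any of the 5. The ferritin-like genes share 1 product text and reads could be split between near-identical copies, so their separate values carry that uncertainty, which was not tested.

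Libraries held between 10457007 and 15456743 counts assigned to genes. The 16 genes described as antenna, photosystem or Rubisco small subunit proteins, which mark a photosynthetic cell, had counts in at least 15 members of the list in every library, with a summed level of 1786 to 3156 CPM (counts relative to the library total, scaled with TMM factors). In a principal component analysis of log2 CPM the leading axis carried 60.6% of the variance, and there Control 1 (-12.2) and Cd50 1 (17.7) lay nearer to the Cd20 libraries (-58.1 to -45.0) than the others of their groups did. TMM factors also followed the groups, at 0.940 to 0.994 in Control, 0.890 to 0.904 in Cd20 and 1.06 to 1.20 in Cd50. With library size alone the median log2 fold change of all genes moved from -0.03 to -0.16 for Cd20 against Control, from 0.03 to 0.26 for Cd50 against Control and from 0.03 to 0.39 for Cd50 against Cd20. Small changes are therefore given with both scalings where the call depends on it. In bulk RNA, a change in the share of cells using a gene and a change in RNA per cell cannot be told apart. Whether a group's libraries are separate cultures is not stated in the labels, so p-values measure only the spread between libraries, which may be technical.

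At 20 mg/L, 3 of the 5 genes were lower than in the control, 1 was higher and 1 did not pass. With 50 mg/L, 1 was higher, 1 was lower and 3 did not pass. A gene was called where the Benjamini-Hochberg adjusted p of edgeR's quasi-likelihood test over all 11140 genes was under 0.05. By this rule 51% of all genes tested were called at 20 mg/L against control, 27.2% as lower and 23.8% as higher, and 39.6% at 50 mg/L, 21.8% as lower and 17.8% as higher. Between the 2 cadmium groups 70% were called, with 35.3% higher and 34.7% lower at 50 mg/L. Being called was thus common among all genes. With library size alone the calls at 50 mg/L against control were 3851 higher and 1582 lower, where TMM gave 1983 and 2431, and for Cd50 against Cd20 they were 5440 and 2262, where TMM gave 3928 and 3865. Against Cd20, the 50 mg/L group had 2 of the 5 genes higher, 1 lower and 2 that did not pass. A call of at least 4-fold was less common: 1.97% of genes had one at 20 mg/L and 1.09% at 50 mg/L. The permease and the E1-E2 ATPase were among them at both concentrations. For Cd50 against Cd20 the share was 2.32%, and 0 of the 5 genes were in it. As the 5 genes were chosen with earlier results of these data known, their place among these calls is a description only. CPM values of the compared groups did not overlap for 4 of the 5 genes at 20 mg/L, 3 at 50 mg/L and 3 between the cadmium groups, beside 61.6%, 46.9% and 74.5% of all genes.

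**Figure D1:**
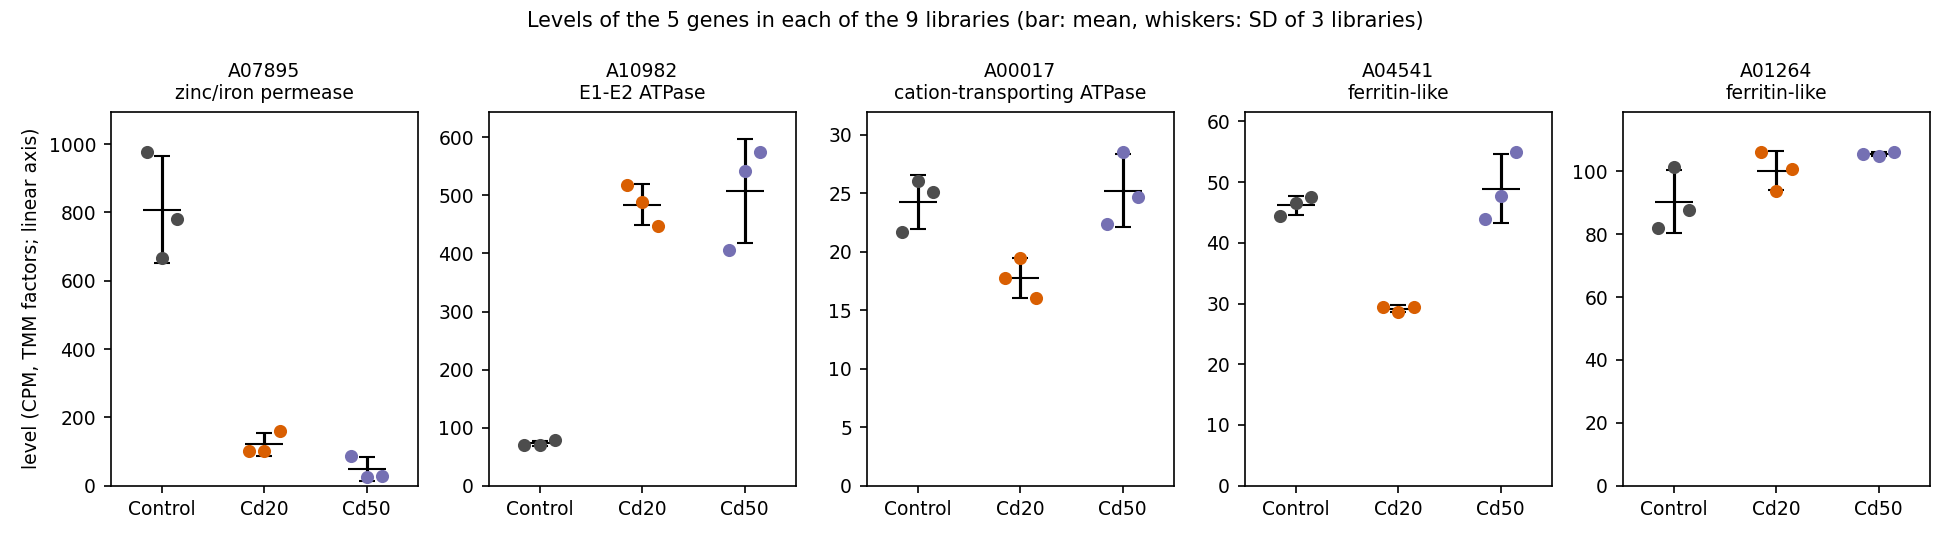
Level of each gene in CPM with TMM factors (linear axes from 0) in the 9 libraries, with 1 point per library, a bar for the group mean and whiskers for the SD of 3 libraries. The permease falls from 667 CPM or more in the controls to 161 CPM or less with cadmium, the E1-E2 ATPase climbs from at most 78.0 to at least 405 CPM, and A00017 and A04541 are lowest in Cd20.

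The zinc/iron permease A07895 was an abundant transcript without cadmium and fell at both concentrations. Its level was 978, 667 and 781 CPM in the control libraries. With 20 mg/L it was 102, 102 and 161 CPM, and with 50 mg/L it was 88.2, 25.9 and 29.7 CPM. No control library came near any cadmium library, and within the Cd50 group library 1 stood 3.17-fold above the mean of the other 2. The log2 fold change was -2.74 at 20 mg/L (SE 0.39, edgeR adjusted p = 0.000184) and -4.08 at 50 mg/L (SE 0.42, edgeR adjusted p = 1.97e-05). These are falls of 6.67-fold and 16.95-fold. Measured per length, as FPKM (counts scaled by coding length and library total), the group means were 707 ± 116, 97.7 ± 27.0 and 48.1 ± 31.7 FPKM (SD, n = 3). By this level A07895 was number 197 of 12605 genes in Control, number 1442 in Cd20 and number 2782 in Cd50. Its share of all assigned counts was 0.0662 to 0.0920% in the controls and 0.00307 to 0.00939% in Cd50.

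Among all 11140 genes tested, the fitted log2 fold change of A07895 was the lowest at 50 mg/L against control, and the 51st lowest at 20 mg/L. Among the 1329 tested genes whose product is other than hypothetical or uncharacterised, it was the lowest in both comparisons. The rank is a description of a gene chosen with earlier results of these data known. In the authors' deposited table its log2 fold changes are -2.71 at 20 mg/L and -4.09 at 50 mg/L.

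The permease was also lower at 50 than at 20 mg/L, by a margin whose size depends on Cd50 1. The call was kept under all 19 alternatives, with values of -2.13 to -1.02. The log2 fold change was -1.34 (SE 0.38, edgeR adjusted p = 0.00784, 95% interval -2.18 to -0.51). The authors' deposited table lists -1.37 (authors' DESeq2 adjusted p = 0.0425). The CPM of Cd50 1 (88.2) lay just under the lowest Cd20 library (102), but its FPKM (84.6) fell between those of Cd20 1 (81.5) and Cd20 3 (129), so on that scale the groups overlapped. Without Cd50 1 the value was -2.13 (edgeR adjusted p = 3.39e-06). Without the 2 libraries displaced on the leading axis, Control 1 and Cd50 1, it was -2.12. The fall at 50 mg/L against control was -4.87 without Cd50 1. Cd50 1 differed from the other Cd50 libraries over the whole transcriptome on the leading axis as well, and the part this plays in the permease value was not tested.

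The E1-E2 ATPase A10982 went the other way and reached nearly the same level in both cadmium groups. The controls held 70.5, 70.7 and 78.0 CPM. The Cd20 libraries held 518, 488 and 447 CPM, and those of Cd50 405, 542 and 576 CPM. The controls lay close together and well below every cadmium library, while the ranges of Cd20 and Cd50 overlapped. The log2 fold change was 2.73 at 20 mg/L (SE 0.13, edgeR adjusted p = 4.96e-08) and 2.80 at 50 mg/L (SE 0.14, edgeR adjusted p = 7.83e-08), which is 6.63-fold and 6.95-fold. It had the 30th highest fitted change of all genes tested at 20 mg/L and the 21st highest at 50 mg/L. As for the permease, these ranks describe a gene chosen with earlier results of these data known. In the authors' deposited table its log2 fold changes are 2.75 and 2.78.

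Between 50 and 20 mg/L the difference for A10982 was 0.07 on the log2 scale (SE 0.13, edgeR adjusted p = 0.64), with a 95% interval of -0.21 to 0.34. That outcome depends on the scaling. With library size alone the difference was 0.44 (edgeR adjusted p = 0.0164) and with upper quartile factors 0.33 (adjusted p = 0.0494), in both cases close to the shift of the median gene. Without Control 1 and Cd50 1 it was 0.21 and passed (adjusted p = 0.019). Cd50 1 was the lowest of its group here, at 0.726 of the mean of the other 2.

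**Figure D2:**
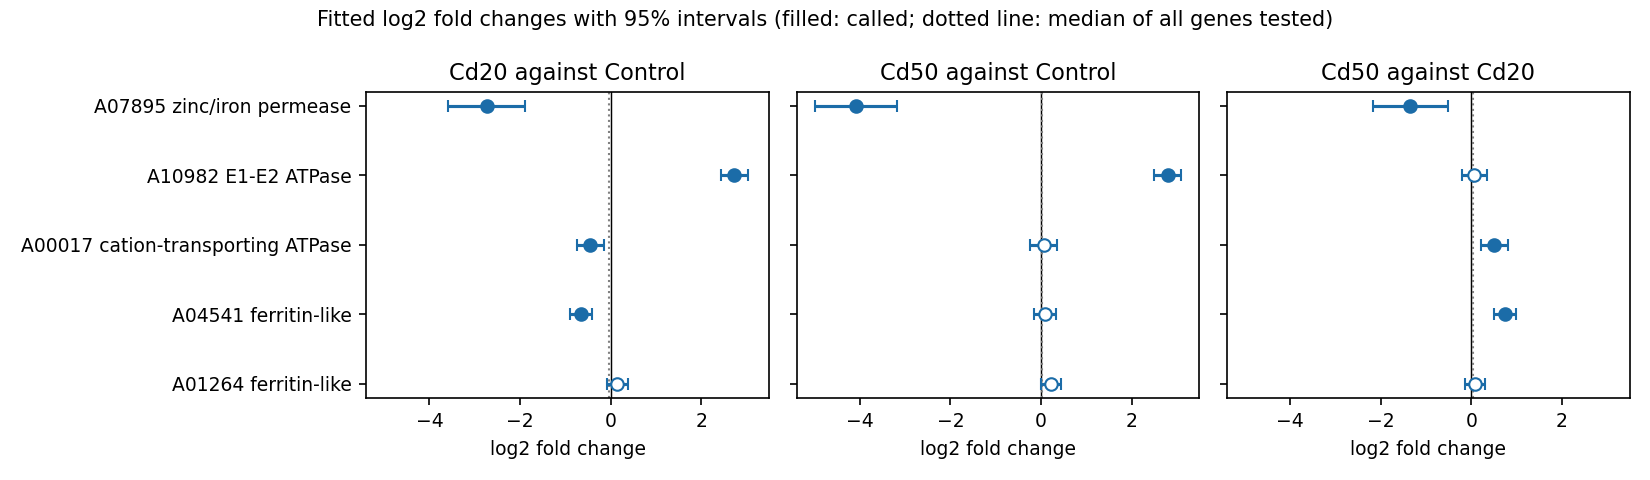
Fitted log2 fold change of each gene in the 3 comparisons (edgeR, all 9 libraries in 1 fit), with bars for the 95% interval, filled points for called genes, a solid line at 0 and a dotted line at the median of all genes tested. The permease and the E1-E2 ATPase lie beyond 2 in opposite directions in both comparisons with the control, while A00017 and A04541 are below 0 at 20 mg/L and above 0 for Cd50 against Cd20.

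Set side by side per length, the permease and the E1-E2 ATPase changed order. The FPKM of A07895 was 41.1, 28.0 and 29.7 times that of A10982 in the controls. At 20 mg/L this ratio was 0.581, 0.617 and 1.07, and at 50 mg/L it was 0.645, 0.142 and 0.153. The ratio is taken within a library, so it does not depend on any scaling between libraries. The permease transcript thus led in the 3 controls and in Cd20 3, and the pump transcript led in the other 5 libraries. Cd50 1 again sat with the Cd20 libraries.

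**Figure D3:**
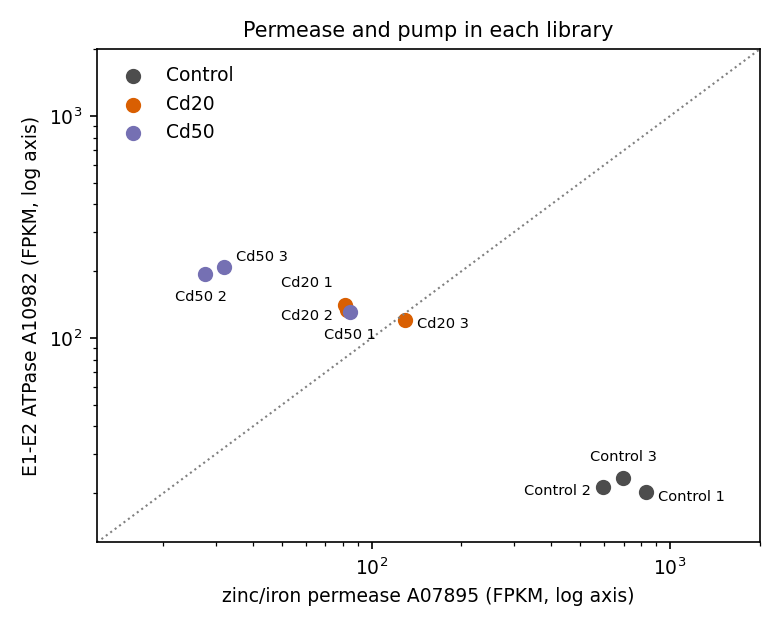
FPKM of the permease A07895 (horizontal, log axis) against FPKM of the E1-E2 ATPase A10982 (vertical, log axis), with 1 point per library and a dotted line where both are equal. The controls lie at the lower right (597 to 829 and 20.2 to 23.4 FPKM), Cd50 2 and Cd50 3 at the upper left, and Cd50 1 among the Cd20 libraries.

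The second P-type pump, cation-transporting ATPase A00017, behaved unlike A10982. It was a low transcript, with 21.7, 26.0 and 25.1 CPM in the controls. The Cd20 libraries had 17.7, 19.4 and 16.0 CPM, and the Cd50 libraries had 22.4, 28.5 and 24.7 CPM. All Cd20 libraries lay below all others, and Control and Cd50 overlapped. The gene fell at 20 mg/L, with a log2 fold change of -0.45 (SE 0.14, edgeR adjusted p = 0.018). That call was lost without Control 2 (adjusted p = 0.0594), without Control 3 (0.0631) and without Cd20 3 (0.0833). At 50 mg/L against control the value was 0.06 (edgeR adjusted p = 0.757), with a 95% interval of -0.24 to 0.35, and 0.30 with library size alone. Cd50 was higher than Cd20 by 0.51 (SE 0.14, edgeR adjusted p = 0.0063), a call kept under all 19 alternatives with values of 0.41 to 0.87. The authors' deposited table lists A00017 at -0.42 for Cd20 against Control and 0.47 for Cd50 against Cd20, and does not list it for Cd50 against Control.

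Per length A10982 exceeded A00017 in every library. The ratio of their FPKM was 3.75, 3.13 and 3.58 without cadmium. It was 33.6, 28.9 and 32.1 at 20 mg/L and 20.9, 21.9 and 26.9 at 50 mg/L. On the log2 scale the within-library ratio of counts differed by 3.18 between Cd20 and Control, by 2.73 between Cd50 and Control and by -0.45 between Cd50 and Cd20. The groups did not overlap in any of the 3 comparisons. An exact two-sided permutation test over libraries gave p = 0.1 each time, the smallest that 3 against 3 can give, and an adjusted p of 0.12 over the 6 ratio tests. No other test of the ratio was run.

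Of the ferritin-like genes, A04541 fell at 20 mg/L and A01264 did not pass in any comparison with TMM and all 9 libraries. A04541 was at 44.5, 46.5 and 47.6 CPM in the controls. The Cd20 libraries were almost equal, with 29.5, 28.6 and 29.5 CPM, and the Cd50 libraries had 43.9, 47.8 and 55.0 CPM. As for A00017, all Cd20 libraries were below all others. The log2 fold change was -0.66 at 20 mg/L (SE 0.11, edgeR adjusted p = 0.000562), and between 50 and 20 mg/L it was 0.75 (SE 0.11, edgeR adjusted p = 0.000169). Both calls were kept under all 19 alternatives, at -0.78 to -0.64 and 0.66 to 1.11. At 50 mg/L against control the difference was 0.08 (edgeR adjusted p = 0.559), with a 95% interval of -0.15 to 0.32, and in limma on log2(FPKM + 1), which scales by library size alone, it was 0.31 (adjusted p = 0.0493). The authors' deposited table gives -0.64 for Cd20 against Control and 0.71 for Cd50 against Cd20.

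A01264 was the more abundant ferritin-like transcript in every library. It held 82.0, 101 and 87.6 CPM in the controls, then 106, 93.7 and 101 CPM at 20 mg/L, and 106, 105 and 106 CPM at 50 mg/L. The 3 Cd50 libraries were nearly identical and all above the controls, but the gap to Control 2 was small. Its log2 fold change was 0.15 at 20 mg/L (edgeR adjusted p = 0.232), with a 95% interval of -0.07 to 0.37. At 50 mg/L it was 0.22 (edgeR adjusted p = 0.0985), with an interval of 0.0026 to 0.45. With library size alone the value at 50 mg/L was 0.46 (adjusted p = 0.00494), with upper quartile factors 0.38 (adjusted p = 0.0157) and without Control 2, using TMM, 0.31 (adjusted p = 0.0311). Against Cd20 the value at 50 mg/L was 0.07 with TMM (edgeR adjusted p = 0.529) and 0.43 without factors (edgeR adjusted p = 0.00364). Whether A01264 passes as higher at 50 mg/L therefore depends on the scaling and, against control, on Control 2.

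The split between both ferritin-like genes within a library does not depend on scaling. A04541 made up 36.5, 32.7 and 36.5% of their summed FPKM in the controls, and 22.7, 24.4 and 23.6% at 20 mg/L. With 50 mg/L it made up 30.6, 32.6 and 35.5%. Cd20 stood below both other groups with no overlap, and Cd50 overlapped the controls. The log2 ratio of counts was lower by 0.82 in Cd20 than in Control (difference -0.82, exact two-sided permutation p = 0.1, the smallest this design allows). Between the cadmium groups it differed by 0.66 (exact permutation p = 0.1) and for Cd50 against Control by -0.15 (exact permutation p = 0.2). Their summed level, unlike the split, depends on the scaling. With TMM factors it was 137 ± 10.8 CPM in Control, 129 ± 6.81 CPM in Cd20 and 154 ± 5.95 CPM in Cd50 (SD, n = 3). In FPKM, which scales by library total, it was 171 ± 17.9, 148 ± 6.66 and 228 ± 22.0 in the same order.

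**Figure D4:**
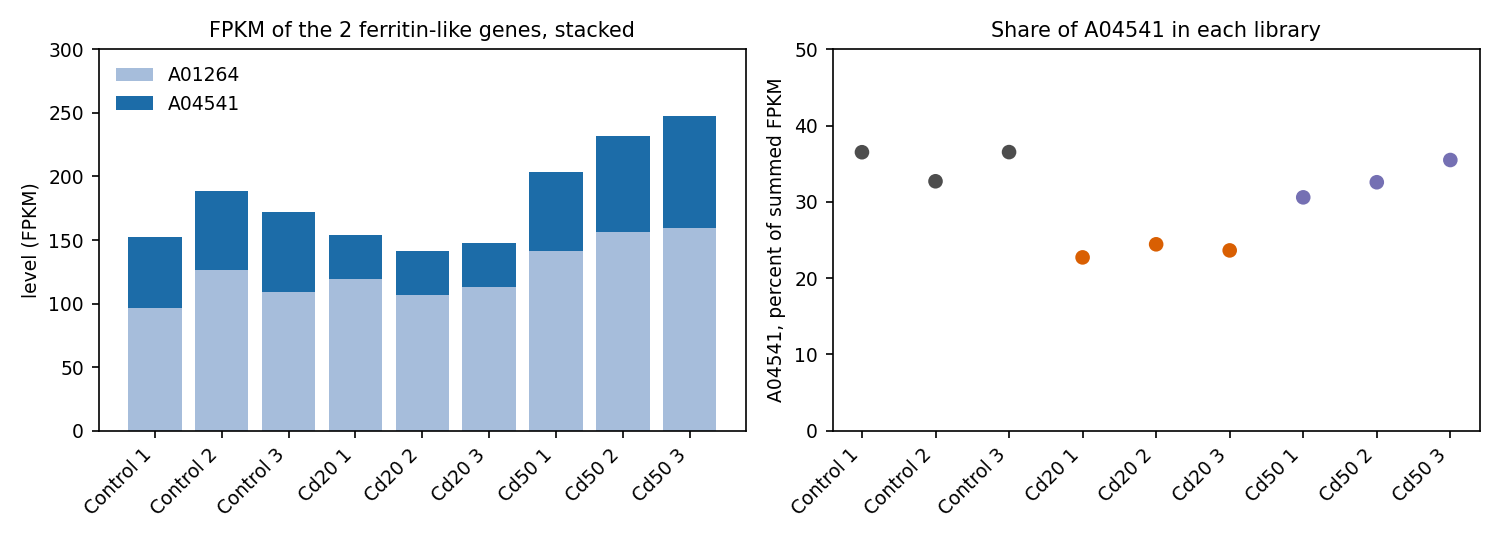
Left, FPKM of ferritin-like A01264 and A04541 stacked for each library (bars from 0). Right, A04541 as a percent of their summed FPKM in each library. The share of A04541 is 22.7 to 24.4% in Cd20 and 30.6% or more in the other 6 libraries.

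The 5 genes thus showed 4 kinds of profile over 0, 20 and 50 mg/L, read from their group levels. A07895 stepped down at each concentration, and A10982 rose at both concentrations, with a difference between them that depends on the scaling. A00017 and A04541 dipped at 20 mg/L. A01264 did not pass with TMM and all 9 libraries. Whether it passes as higher at 50 mg/L depends on the scaling and, against control, on Control 2. The spread between libraries of a group was widest for A07895, with a coefficient of variation of 19.5% in Control, 28.2% in Cd20 and 72.9% in Cd50. For A04541 it was 3.42, 1.76 and 11.5%, and for A10982 it was 5.82, 7.32 and 17.8%. Across the 9 libraries, which fall into 3 groups, Pearson correlation of log2 CPM was -0.93 between A07895 and A10982 and 0.88 between A00017 and A04541, and is given as a description only.

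Genes with the most similar profiles were looked up among 7375 tested genes with a mean of at least 10 CPM, by Pearson correlation of log2 CPM over the 9 libraries. For the permease they were A09138 (r = 0.994) and A01083 (0.994), both without an informative product. Among genes with a product other than hypothetical or uncharacterised, they were the cytochrome P450 gene A02478 (0.984), of a family of oxygenases, and the pyridoxal phosphate-dependent transferase A10796 (0.975). The mean level of A02478 went from 906 to 488 and 348 CPM over Control, Cd20 and Cd50, a shallower descent than that of the permease. For A10982 they were Novel00961 (0.999) and A00682 (0.997), and among genes with a product A02128 (0.995), whose text is only an identifier, and the peptidase M24-domain gene A10377 (0.993). Novel00961, an undescribed locus, went from 7.80 to 115 and 115 CPM.

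A00017 was most like A08260 (0.979) and A07828 (0.977), neither with a product, and then RuvB-like 2 (A02099, 0.971), an ATPase of chromatin remodelling complexes, and glutamate-tRNA ligase (A02671, 0.971). A04541 was most like the undescribed A09302 (0.991) and A05148 (0.989), then the Rab-7 gene A03503 (0.985), of a small GTPase that directs traffic to late endosomes and vacuoles. The next described gene for A04541 was A09151 (0.980), subunit G of the vacuolar proton pump. A01264 had no close match: the highest was the sirtuin-2 gene A05539 (0.923), of a family of protein deacetylases, followed by Novel00726 (0.905), and then among genes with a product by a mitochondrial elongation factor G (A06408, 0.859). All of these values share the same 9 libraries and their groups.

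Other pump genes were read from product words for ATP-driven ion pumps, which matched 11 genes, the 2 described above included. Among the 11 is the proton-pumping pyrophosphatase A02544, which spends pyrophosphate and not ATP. A02544 was called higher at 20 mg/L, and lower at 50 mg/L both against control and against Cd20. At 20 mg/L, 3 of the 11 were higher, 5 lower and 3 did not pass. Their median log2 fold change was -0.12, against -0.03 for all genes. At 50 mg/L against control 4 were higher, 1 was lower and 6 did not pass (median 0.10, all genes 0.03). The 5 called there became 2 without Control 3, Cd50 2 or Cd50 3. Between the cadmium groups, 7 were higher at 50 mg/L, 2 lower and 2 did not pass (median 0.51, all genes 0.03). With library size alone, 6 of the 11 were higher, 0 lower and 5 did not pass at 50 mg/L against control. The same scaling gave 9 higher, 1 lower and 1 that did not pass for Cd50 against Cd20. At 20 mg/L it gave 2 higher, 5 lower and 4 that did not pass. The vacuolar proton pump, a rotary ATPase that acidifies the vacuole and thereby powers exchange of protons for metal ions, supplied 6 of the 11. Of all genes tested, 51% were called at 20 mg/L, 39.6% at 50 mg/L and 70% between the cadmium groups, and nothing particular to the 11 is read from their counts. A further 3 subunits were added by reading product names.

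Of these 9 vacuolar pump genes, 6 fell at 20 mg/L, 0 rose and 3 did not pass, with a median log2 fold change of -0.54. Among the subunits matched by words, A, C and G fell, and B (A01036), F and the proteolipid did not pass. The added subunits, E (A04449), a and V0 c/d, all fell, and they were chosen after their values were seen. Subunit a (A10915), at -0.39, lost its call when some single libraries were left out. Catalytic subunit A (A05895) went from 195 to 103 CPM (-0.93, edgeR adjusted p = 0.000156) and subunit G (A09151) from 37.4 to 18.8 CPM (-0.99, edgeR adjusted p = 0.000163). Subunit C (A10379) went from 41.6 to 22.7 CPM and the V0 c/d subunit (A02742) from 69.4 to 39.7 CPM. Cd50 exceeded Cd20 in 8 of the 9, with a median of 0.77, beside 35.3% of all genes. Against control, 3 were higher at 50 mg/L, 0 lower and 6 did not pass, with subunit F (A02001) going from 64.2 to 108 CPM (0.75, edgeR adjusted p = 0.00019) and the proteolipid subunit (A10257) from 156 to 189 CPM (0.27, adjusted p = 0.0276). Of all genes, 17.8% were higher there. With library size alone, which raised the higher calls of all genes too, 9 of the 9 were higher in Cd50 than in Cd20 and 6 were higher than in Control. The 6 vacuolar pump genes that fell are those called lower at 20 mg/L, so their dip was fixed by that choice. Nothing is read from its likeness to the dip in A00017 and A04541. Subunits B, F and the proteolipid did not pass at 20 mg/L, and the 6 include the subunits added after their values were seen. Of all genes tested, 27.2% were lower there, and nothing particular to the vacuolar pump is read from its counts.

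**Figure D5:**
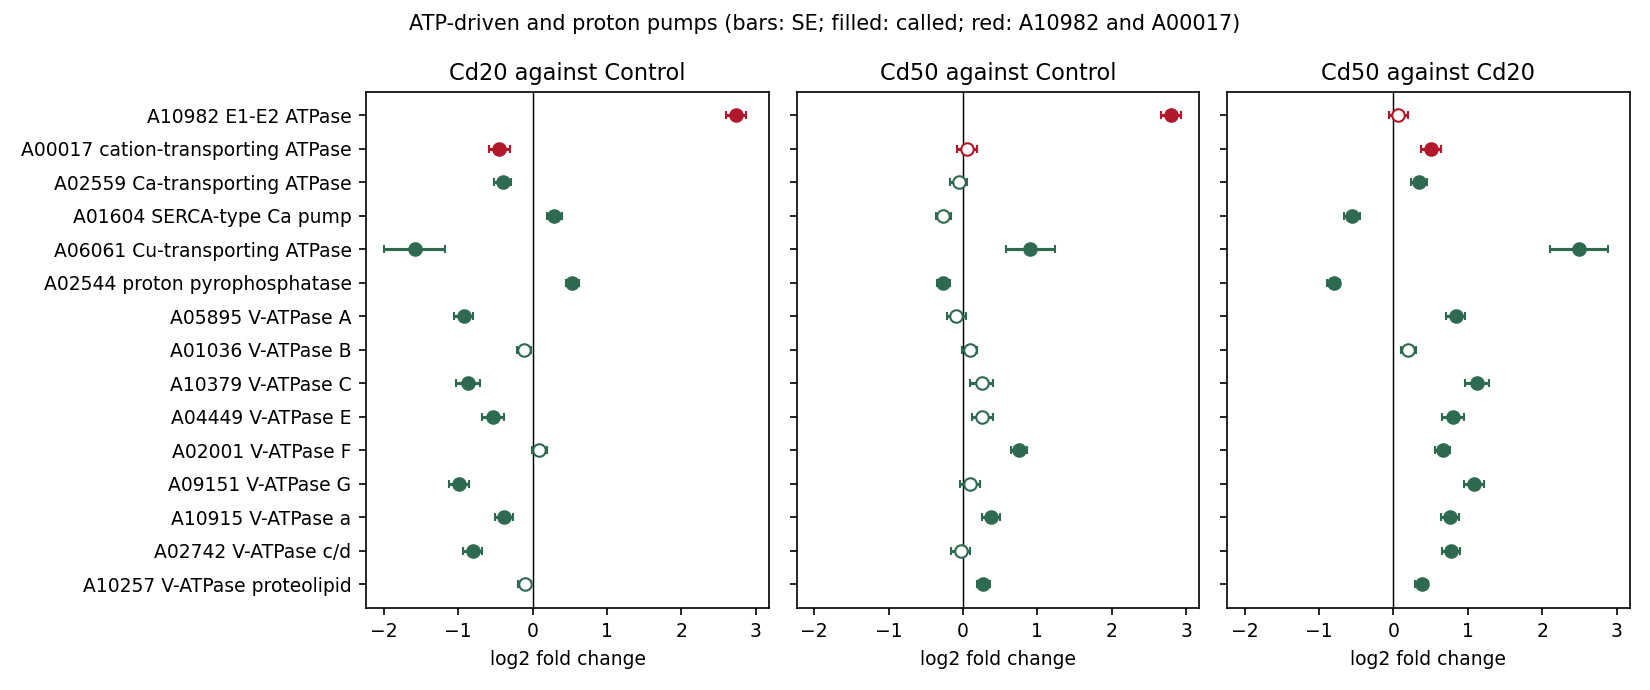
Fitted log2 fold change (points) with SE (bars) of 15 pump genes in the 3 comparisons, with filled points for called genes and A10982 and A00017 in red. A10982 is the highest of the 15 in both comparisons with the control, and most vacuolar pump (V-ATPase) subunits lie below 0 for Cd20 against Control and above 0 for Cd50 against Cd20. Open points did not pass, and no direction is read from them.

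A further 3 P-type ATPases were measured. The copper-transporting ATPase A06061, of a class that exports copper from the cytosol, was rare, with means of 4.84 CPM in Control, 1.57 in Cd20 and 8.94 in Cd50. It fell at 20 mg/L (-1.59, SE 0.40, edgeR adjusted p = 0.00681), and Cd50 exceeded Cd20 by 2.49 (SE 0.39, edgeR adjusted p = 0.000215). Against control its call as higher at 50 mg/L (0.91, edgeR adjusted p = 0.0455) was lost without Control 1 (adjusted p = 0.0801), among other libraries. The Ca-transporting ATPase A02559 fell at 20 mg/L (-0.40, edgeR adjusted p = 0.0103), a call lost without Cd20 3 (adjusted p = 0.0524), whereas the SERCA-type calcium pump A01604, which fills the endoplasmic reticulum with calcium, was at 45.7, 55.9 and 38.0 CPM in Control, Cd20 and Cd50. Its call as higher at 20 mg/L (0.29, edgeR adjusted p = 0.0334) was lost with library size alone (adjusted p = 0.197) and, with TMM, without Control 1, Control 2 or any 1 of the Cd20 libraries (adjusted p = 0.0617 to 0.0921). The proton-pumping pyrophosphatase A02544, which also acidifies the vacuole but spends pyrophosphate, rose at 20 mg/L from 791 to 1146 CPM (0.53, edgeR adjusted p = 0.000456). Its level in Cd50, 657 CPM, was lower than in Cd20 (-0.80, edgeR adjusted p = 3.89e-05) and than in Control (-0.27, edgeR adjusted p = 0.0287), the latter call being lost with library size alone (-0.03, adjusted p = 0.738) and without Control 1, Control 3, Cd50 2 or Cd50 3 (adjusted p = 0.101 to 0.116). None of these pumps rose in both comparisons with the control as A10982 did.

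Words for metal uptake and storage matched only A07895, A04541 and A01264. Reading the product names added the zinc permease family gene A04655, which rose at 20 mg/L from 28.3 to 43.7 CPM (0.63, SE 0.17, edgeR adjusted p = 0.00971). In Cd50 it stood at 33.8 CPM and did not pass against control with TMM (0.25, edgeR adjusted p = 0.252). In FPKM, which scales by library total, its means were 80.4, 114 and 112 in Control, Cd20 and Cd50. On that scale every Cd50 library (97.8 or more) lay above every Control library (87.4 or less). The deposited span of A04655, chromosome 1 from 4530557 to 4530898, is short beside that of A07895. The mitochondrial carrier A02436, named after a yeast protein that brings iron into mitochondria, was at 46.0, 53.2 and 46.9 CPM and did not pass in any comparison, with TMM or with library size alone. The iron-binding protein A06974 (136, 119 and 130 CPM) did not pass with TMM. Scaled by library size alone it was lower at 20 mg/L than in Control (-0.31, edgeR adjusted p = 0.0103) and higher in Cd50 than in Cd20 (0.48, edgeR adjusted p = 0.00037). A07801, described as a copper and phosphate carrier (249, 244 and 294 CPM), did not pass with TMM either. Scaled by library size alone it was higher in Cd50 than in Control (0.48, edgeR adjusted p = 0.0113) and than in Cd20 (0.63, edgeR adjusted p = 0.00121).

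Product words for iron-using and iron-sulfur genes matched 7. At 20 mg/L 2 were higher, 1 was lower and 4 did not pass (median 0.16), and the same numbers held at 50 mg/L against control (median 0.36). Between the cadmium groups, 2 were higher at 50 mg/L, 3 lower and 2 did not pass (median -0.07). The shares of all genes called were again 51%, 39.6% and 70%. Under library size alone, 5 of the 7 were higher at 50 mg/L than in Control and 0 lower, and against Cd20 4 were higher and 2 lower. A probable ferredoxin gene (A03671), of a family of iron-sulfur electron carriers, rose at 20 mg/L from 692 to 1350 CPM (0.97, edgeR adjusted p = 7.53e-05). An iron-sulfur cluster assembly gene (A09256) rose from 24.6 to 46.4 CPM at 20 mg/L (0.91, edgeR adjusted p = 0.000122) and stood at 35.5 CPM at 50 mg/L (0.53, adjusted p = 0.00547). SufB (A10924), part of the cluster assembly machinery of plastids, was lower at 50 than at 20 mg/L (-0.58, edgeR adjusted p = 0.0003), and the iron-sulfur protein A03102 was higher (1.58, edgeR adjusted p = 0.000303). Of the 2 ion carriers and channels matched, the potassium/proton antiporter A02900 rose at 20 mg/L (0.50, edgeR adjusted p = 0.0066) and at 50 mg/L against control (0.39, edgeR adjusted p = 0.0275), the second call being lost without Control 3 or Cd50 1. The potassium channel beta subunit A03796 did not pass at 20 mg/L and rose at 50 mg/L against control (0.48, edgeR adjusted p = 0.00283).

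The genes next to the 5 on their chromosomes gave a local comparison. Of 10 neighbours 9 could be tested, of which 1 was higher and 2 were lower at 20 mg/L and 2 were higher and 2 lower at 50 mg/L against control, beside 51% and 39.6% of all genes called in either direction. Undescribed A07896, 1327 bases beyond the permease, went from 7.01 to 5.25 and 2.27 CPM, with a fall at 50 mg/L of 1.63 on the log2 scale (edgeR adjusted p = 8.80e-05). Both neighbours of the E1-E2 ATPase were lower at 20 mg/L, where the pump itself was higher. They were A10981 (AhpC-TSA, a peroxiredoxin-type domain), 1827 bases away, at -0.39 (edgeR adjusted p = 0.00547), and undescribed A10983, 354 bases away, at -0.74 (adjusted p = 0.00155). Undescribed A00016, 439 bases from A00017, rose at 50 mg/L by 1.07 (edgeR adjusted p = 0.00103), where A00017 did not pass. The neighbours of the ferritin-like genes were A04540 and A04542, neither called against control, and Novel00372 and A01265, which were called as higher at 20 and at 50 mg/L respectively from control means of 3.50 and 0.769 CPM. The call of Novel00372 was lost in limma on log2(FPKM + 1).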

How the data were processed

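The deposited counts are whole numbers of reads per gene and library, 12605 genes of which 219 had no count. Per the labels' protocols, libraries were made strand-specific with dUTP. Per the submitters' processing notes, STAR 2.7.10a, StringTie 2.2.1 and DESeq2 1.34.0 were used. No source used here names the counting program, its strand setting, the genome assembly or the annotation. The deposited FPKM values match count, coding length and column total within 1% for 100% of non-zero values. Lengths are multiples of 3 in 91.9% of genes, and were read as coding lengths on that ground alone. For each comparison the authors deposited log2 values (fold changes) with p-values, raw and adjusted, for genes whose adjusted p is at most 0.05. A signal of mean counts per group in the same deposited tables was not used.

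The main test was the quasi-likelihood F-test of edgeR 4.0.16 under R 4.3.3, fitted once to the 9 libraries by group, after filterByExpr and with TMM factors. It was also run on simulated counts drawn with the fitted spread of each gene, and the outcome is not reported here. Those counts held no shift in scaling that followed the groups. They therefore do not bear on calls that depend on the scaling. The SE was derived for each comparison as the absolute log2 fold change divided by the square root of its F statistic. Intervals are 95%, from this SE. DESeq2 1.42.0 and limma 3.58.1 on log2(FPKM + 1) or log2(FPKM + 0.1), with the same filter or none, served as alternatives, as did 2 other scalings, a replicate block, the 6 libraries compared alone, no filter, and leaving out libraries. Ratios used counts + 0.5 and exact permutation tests in SciPy 1.17.1.

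The 5 genes and the word lists were chosen with earlier results of these data known. Genes named besides the 5 are the 2 of lowest adjusted p per list and comparison, the 2 nearest profiles with and without an informative product, and the nearest neighbours. The vacuolar pump list was completed, and other metal and pump genes added, from product names. Genes named outside the rule, such as A06061, A01604, A10379 and those added from product names, were chosen after their values were seen. No sequence was available to print. Library totals were 10457007 to 15456743, and the lowest count of any of the 5 genes was 154.

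Replicate numbers come from the labels, which do not say what they stand for. Residuals of same-numbered libraries correlated at 0.594, 0.449 and 0.186 for Cd50 and Control. They correlated at -0.167, 0.056 and -0.045 for Cd20 and Control, and at -0.214, 0.132 and -0.218 for Cd50 and Cd20. Residuals within a group are tied to each other, so the values of 1 comparison are not independent. Whether libraries were paired was not tested, and the main fit ignored any pairing.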

Additional observations from a re-analysis of the deposited data

How the results depend on the processing

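For the 5 genes, 262 of 285 values under 19 alternatives kept their direction and their side of the threshold, 18 newly passed, 3 were lost and 2 changed sign. Fits with the replicate block changed no call of the 5 genes, and the permease at 50 mg/L against control was then -4.20 on the log2 scale. The 2 sign changes were in values that did not pass: A00017 at 50 mg/L against control, -0.022 to 0.13 over the fits without 1 library, and A10982 for Cd50 against Cd20, -0.026 to 0.20. For Cd50 against Cd20 the neighbour A04540 went from -0.32 to 0.04 with library size alone and to 0.037 in each of the limma fits on FPKM. These alternatives scale by library total. At 50 mg/L against control, higher genes among the 5 numbered 2 with library size alone, with upper quartile factors and in limma on log2(FPKM + 0.1) or without a filter, 3 in limma on log2(FPKM + 1), and 1 to 2 without 1 library. For Cd50 against Cd20 they numbered 4 under all of these scalings. Over all genes at 50 mg/L against control, higher calls were 3851 with library size alone, 3119 with upper quartile factors, 3792 and 3676 in limma on log2(FPKM + 1) and log2(FPKM + 0.1), 3720 without a filter, and 1300 to 2516 without 1 library. Lower calls were 1582, 1579, 1569 and 1576 with library size alone and in those limma fits. For Cd50 against Cd20, lower calls were 2262, 2271, 2269 and 2263 in the same order. Iron-using genes called at 20 mg/L were 6 without Control 1 and Cd50 1. Against control at 50 mg/L they were 5 with library size alone and in limma without a filter, and 6 with upper quartile factors and in the other limma fits. For Cd50 against Cd20 they were 3 to 5 without 1 library. Pump genes called at 50 mg/L against control were 2 in the fit of 6 libraries and 2 to 7 without 1 library. The cause of each move was not tested. Among context genes, 919 values were kept, 103 lost their call and 4 changed sign. The lowest count of the 5 genes, 154, was that of A00017 in Cd20 3. What the count contributes to the precision of A00017 was not tested.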
